A study of Astyanax mexicanus with 6 samples.

Results

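The genes described here are the cytokines, chemokines, their receptors, and the Toll-like receptor (TLR), TNF receptor and NF-kB signalling genes of Astyanax mexicanus, measured in 2 liver-derived cell lines. They were chosen by gene symbol (interleukins, CC and CXC chemokines, tumour necrosis factor family, TLRs, NF-kB genes, TRAFs, MyD88, IRAKs, colony stimulating factors, and the receptors that share those symbols), which gave 142 of the 27420 genes of the expression table. SFL is the line from surface fish liver and CFL is the line from the liver of Pachón cavefish, and bulk polyA RNA-seq was done on 3 libraries of each. SFL replicate 1 came from passage 45 and the other SFL libraries from passage 46, while CFL replicate 1 came from passage 50 and the other CFL libraries from passage 51. The donor fish were about 150 days old in both lines. According to the study's methods the Pachón donors were starved before dissection and each line was grown from picked clones. CFL is described there as hyperdiploid. The lines were kept in medium with insulin, epidermal growth factor, fetal bovine serum and trout serum, according to the same methods. No added cytokine or microbial stimulus is named for any library. The comparison asks which of these genes differ in transcript level between the lines under those culture conditions.

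Cytokines are secreted proteins that carry signals between cells, and chemokines are the cytokines that attract migrating cells. TLRs recognise microbial molecules, and most of them signal through the adaptor MyD88 and the IRAK kinases. TNF receptors signal through TRAF proteins. Both routes activate the IKK kinases, which mark the IkB inhibitors for degradation and so release the NF-kB subunits to the nucleus, where they switch on cytokine genes and their own inhibitors. In the liver, hepatocytes answer these signals with acute phase proteins, while resident macrophages are a main source of inflammatory cytokines.

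All values are TPM, a share of the transcripts in a library corrected for transcript length and scaled to the same total everywhere. Each library held 13254 to 13721 genes at 1 TPM or above, and depth is unknown because TPM keeps no counts. The labels give liver as the tissue, yet of 16 hepatocyte markers 12 were below 1 TPM in all 6 libraries. The summed level of the 16 was 8.23 to 18.7 TPM in SFL libraries and 1.47 to 2.47 TPM in CFL libraries. Among the 6 hepatocyte markers that were tested, tfa, fgb and apoa1a were higher in SFL. Only tat was lower (mean 0.08 TPM in SFL, 1.51 TPM in CFL). The 10 bile duct epithelium markers summed to 5042 to 6958 TPM in SFL libraries and 1155 to 1410 TPM in CFL libraries. The sum came mostly from the keratins krt8 and krt18b, and 4 of the 10 markers were below 1 TPM in all libraries. Of the 6 that were tested, 4 were higher and 2 were lower in SFL. The 2 were sox9a (mean 0.73 TPM in SFL, 39.1 TPM in CFL) and hnf1bb (mean 7.26 TPM in SFL, 193 TPM in CFL). Of 25 leukocyte markers 20 were below 1 TPM in all libraries and 4 were at 0 throughout. Their sum was 46.9 to 83.9 TPM in SFL libraries and 90.9 to 161 TPM in CFL libraries, mostly from MPEG1 and itgb2, while the pan-leukocyte PTPRC did not exceed 0.21 TPM and the neutrophil enzyme mpx 0.04 TPM in any library. The list also holds csf1ra, il2rga and il2rgb, which are among the genes described here. The sums of the 10 endothelial markers (89.7 to 248 TPM in SFL, 60.1 to 80.6 TPM in CFL) and of the 11 stellate cell or fibroblast markers (347 to 1453 TPM in SFL, 665 to 1294 TPM in CFL) are given for the same reason: the part of cell identity in the cytokine gene differences was not tested. Of the endothelial markers 6 were below 1 TPM in all libraries. Their sum came mostly from kdrl and kdr, and kdr had 4.77, 36.3 and 154 TPM in SFL replicates 1, 2 and 3. Among the stellate cell or fibroblast markers 4 were below 1 TPM in all libraries. Of the 7 tested there, col1a1a was higher in SFL. Lower were pdgfra (mean 1.03 TPM in SFL, 21.5 TPM in CFL) and pdgfrb (mean 0.81 TPM in SFL, 11.5 TPM in CFL). The libraries of a line are cultures of that line and not separate fish, so p-values measure the spread between these cultures, and line and passage number cannot be told apart. In bulk RNA, fewer cells that express a gene and less RNA per cell cannot be told apart either.

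Many of the 142 genes were low or silent in both lines. With detection set at 1 TPM or more in all 3 libraries of a line, 45 genes were detected in both lines, 4 in SFL only, 14 in CFL only and 79 in neither (55.6%, against 49.2% of all 27420 genes). Over all 27420 genes the numbers were 11587 in both lines, 1147 in SFL only, 1193 in CFL only and 13493 in neither. Of the 79, 66 stayed below 1 TPM in all 6 libraries, as did 11869 of all 27420 genes. Listed at 0 in every library were 11 (7.75%, against 15.2% of all genes). The 11 include both copies of cxcr4, the receptor of cxcl12, and il7r, an interleukin receptor of lymphocytes. The 142 genes together made up 1415, 947 and 1205 TPM in SFL replicates 1, 2 and 3, and 1068, 1054 and 1156 TPM in CFL replicates 1, 2 and 3. The totals of the lines overlapped.

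Of the 97 genes that reached 0.2 TPM in at least 1 library and were tested, 7 were higher and 15 were lower in SFL (limma on log2(TPM + 1), Benjamini-Hochberg adjusted p under 0.05 over all 18489 genes tested and a fold change of at least 2, hereafter called). The same rule called 11.7% of all tested genes higher and 8.88% lower in SFL, against 7.22% higher and 15.5% lower among these 97. The median log2 fold change, SFL minus CFL, was -0.14 over the 97 genes and 0.07 over all genes tested. The lines did not overlap in 44 of the 97 genes (45.4%), against 53.0% of all genes tested. Of the 97, SFL was above CFL in 18 and CFL above SFL in 26, against 5513 and 4277 of all 18489 genes tested. The called genes were ligands, receptors, TNF-induced proteins and 1 inhibitor, whereas none of the tested TLRs, TLR adaptors, IRAKs, TRAFs or NF-kB subunits was called in either direction in this fit. In these classes, a pseudocount of 0.1 in place of 1 added calls for nfkb1 (1.06), tlr2 ENSAMXG00000037614 (3.90) and traf4b (2.43), the later passages alone added traf2b (-1.08, adjusted p = 0.0409, limma), and leaving out 1 library added nfkb1, both tlr2 genes, TLR5 and tlr8a, with values beside each gene. At an unadjusted p under 0.05 stood 46.5% of all genes tested, 26.0% higher and 20.5% lower in SFL. Adding 1 TPM before taking logarithms makes the fold changes of weakly expressed genes too small. Because the exact permutation test of 3 against 3 libraries cannot go below p = 0.1, single genes were tested only in the limma fit.

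**Figure D1:**
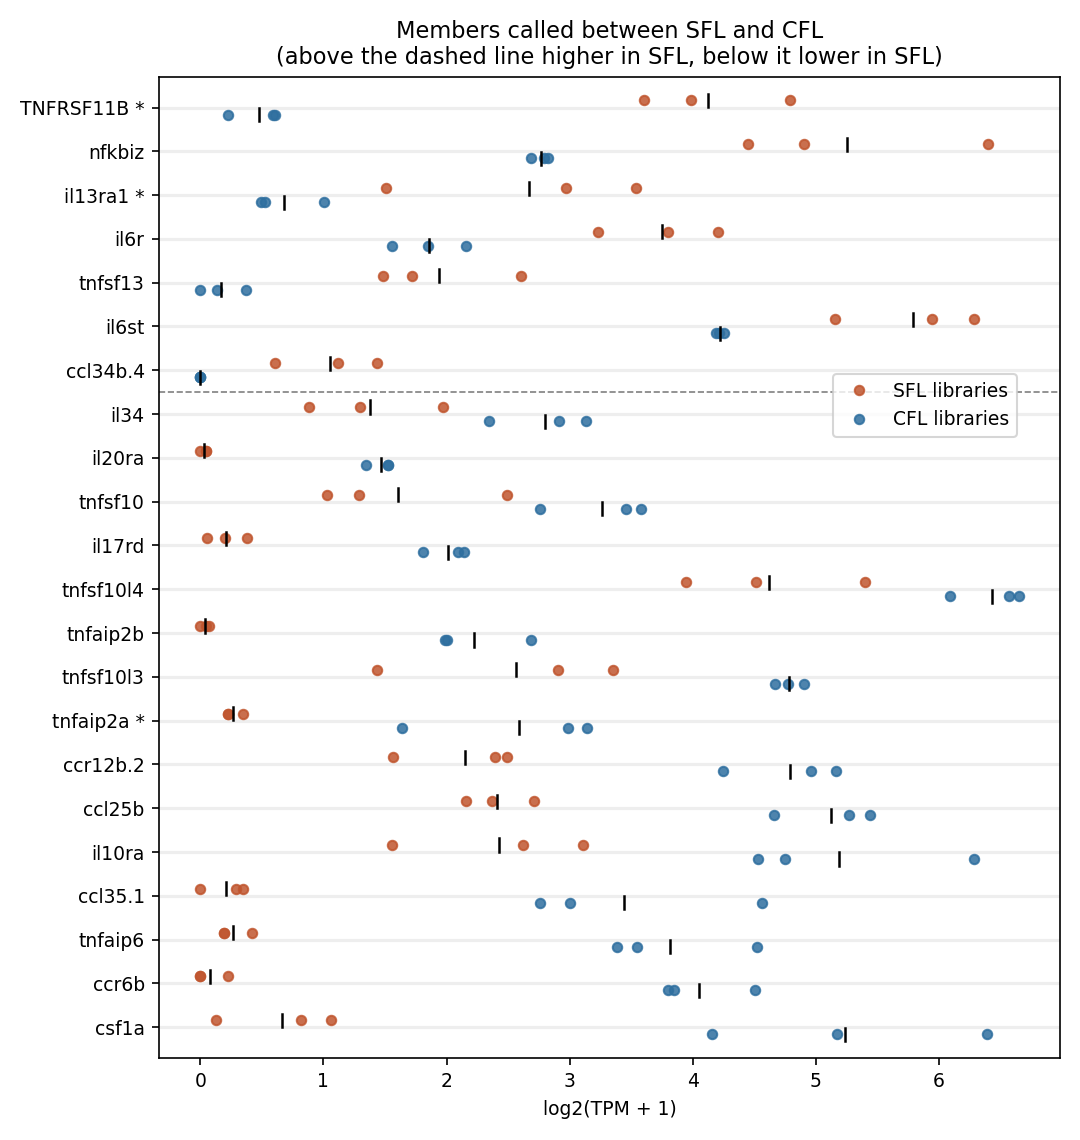
Level of the 22 called genes in each library, as log2(TPM + 1) on the horizontal axis, with SFL libraries drawn above CFL libraries in each row and a bar at the mean of each line. The 7 genes above the dashed line were higher in SFL and the 15 below it were lower in SFL, with no overlap between the lines in any row; an asterisk marks a symbol carried by more than 1 gene.

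Of the 3 genes for ligands of the CSF1 receptor, csf1a and il34 were lower in SFL and csf1b was silent. The gene csf1a encodes macrophage colony stimulating factor and stood at 0.76, 1.09 and 0.09 TPM in SFL replicates 1, 2 and 3, against 16.8, 35.1 and 82.8 TPM in CFL replicates 1, 2 and 3. All SFL libraries were near or below 1 TPM, and CFL replicate 3 was the highest library. It fell by 4.57 on the log2 scale (SE 0.56, adjusted p = 0.00151, limma), the largest difference in either direction among the 97 genes. The other ligand of this receptor, il34, had 1.46, 0.84 and 2.91 TPM in SFL, against 6.53, 7.79 and 4.08 TPM in CFL. It fell by 1.42 (SE 0.34, adjusted p = 0.0191, limma), with no overlap. The il34 call was lost without SFL replicate 1, SFL replicate 2, CFL replicate 1 or CFL replicate 2, where adjusted p ran from 0.0509 to 0.0748 (limma), and likewise in the fit that blocks on replicate number (adjusted p = 0.0521), without a filter (0.0623) and in the later passages alone (0.138, limma). The receptor itself, csf1ra, was listed at 0 in all SFL libraries and had 0.64, 0.83 and 1.01 TPM in CFL, which passed on adjusted p (0.00158, limma). At these levels the added 1 TPM kept its fitted fold change below 2, and it was called lower with a pseudocount of 0.1 (adjusted p = 0.000452, limma). The duplicate ligand csf1b was at 0 in all 6 libraries.

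The granulocyte colony stimulating factor csf3a had the highest mean of all 142 genes. It also had the widest ratio between SFL libraries among the 49 genes detected in all of them. It stood at 584, 204 and 26.8 TPM in SFL replicates 1, 2 and 3, against 8.96, 26.6 and 11.5 TPM in CFL replicates 1, 2 and 3. The lines did not overlap, but SFL replicate 3 and CFL replicate 2 were nearly equal. The difference was 3.31 on the log2 scale (SE 1.06, adjusted p = 0.0503, limma) and so missed the threshold. Without SFL replicate 3 it was 4.52 (adjusted p = 0.00344, limma), a call, and it was also called with a pseudocount of 0.1 (adjusted p = 0.0439), with a filter of 1 TPM in 3 libraries (0.0434) and with the replicate block (0.0438). With another library left out, the csf3a difference went down to 2.32 and adjusted p went up to 0.149 (limma). Its receptor csf3r did not exceed 0.34 TPM in any library.

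Among the chemokines, 10 of 14 were tested, 1 was higher and 2 were lower in SFL, against 11.7% higher and 8.88% lower of all genes tested. Of the 2, ccl25b is a duplicate of the chemokine that in mammals guides thymocytes and gut lymphocytes. It had 5.54, 3.47 and 4.17 TPM in SFL, against 42.4, 24.2 and 37.5 TPM in CFL, a fall of 2.71 on the log2 scale (SE 0.27, adjusted p = 0.000601, limma). The CC chemokine ccl35.1 had 0.22, 0 and 0.27 TPM in SFL, against 22.6, 7.0 and 5.77 TPM in CFL, and fell by 3.23 (SE 0.46, adjusted p = 0.00279, limma). Both lay apart between the lines in all libraries, ccl25b as a gene detected in both lines and ccl35.1 as one detected in CFL only. The CC chemokine ccl34b.4 was the one higher in SFL, with 1.17, 1.70 and 0.52 TPM there, and was listed at 0 in all CFL libraries (adjusted p = 0.00922, limma). Its fitted difference, 1.05 on the log2 scale, depends on the pseudocount, and without SFL replicate 2 it was 0.86, below a fold change of 2. The most abundant chemokine, ccl20b, a duplicate of the ligand of ccr6 in mammals, had 49.7, 11.7 and 86.9 TPM in SFL, against 25.2, 26.2 and 42.7 TPM in CFL. Its lines overlapped, and the log2 fold change of 0.29 (SE 0.68, adjusted p = 0.759, limma) turned to -0.31 without SFL replicate 3. The neutrophil attractant cxcl8a had 1.34, 0.37 and 2.90 TPM in SFL, against 0.21, 0.22 and 0 TPM in CFL (log2 fold change 1.03, adjusted p = 0.064, limma) and was called without SFL replicate 2 (1.41, adjusted p = 0.0135, limma). The cxcl8a difference went down to 0.65 with another library left out, and adjusted p up to 0.165 (limma). Neither copy of cxcl12 exceeded 1.21 TPM, and cxcl12a, with 0, 0 and 0.13 TPM in SFL, against 0.28, 0.89 and 0.49 TPM in CFL, passed on adjusted p (0.033, limma) but reached a fold change of 2 only with a pseudocount of 0.1 (-2.20, adjusted p = 0.0159, limma).

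Of 17 chemokine receptors only 5 reached the test, and both that were called were lower in SFL (40.0% of the 5, against 8.88% of all genes tested). One copy of ccr6 in this table, ccr6b, was at 0, 0.17 and 0 TPM in SFL, against 13.4, 21.8 and 13.0 TPM in CFL. SFL was at or near 0 in all libraries, and the gene fell by 3.98 on the log2 scale (SE 0.24, adjusted p = 8.36e-05, limma). The other copy, ccr6a, did not exceed 0.51 TPM in either line. The receptor ccr12b.2 had 4.24, 4.62 and 1.96 TPM in SFL, against 17.98, 30.2 and 34.9 TPM in CFL, and fell by 2.64 (SE 0.35, adjusted p = 0.00193, limma). The receptor cxcr3.3, named after its values were seen, overlapped between the lines, with 31.0, 7.76 and 2.93 TPM in SFL, against 5.10, 4.36 and 6.50 TPM in CFL. The remaining 13 chemokine receptors did not exceed 0.22 TPM in any of the 6 libraries.

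Of 13 tested interleukin receptors, 3 were higher and 3 were lower in SFL (23.1% each, against 11.7% higher and 8.88% lower of all genes tested). The shared signalling chain of the interleukin-6 family, il6st (gp130 in mammals), had 76.8, 34.5 and 60.4 TPM in SFL, against 17.3, 18.1 and 17.6 TPM in CFL. Its partner il6r, which binds interleukin-6, had 17.4, 12.9 and 8.40 TPM in SFL, against 2.60, 1.94 and 3.46 TPM in CFL. In both genes every SFL library was above every CFL library. The log2 fold change was 1.57 for il6st (SE 0.29, adjusted p = 0.00768, limma) and 1.89 for il6r (SE 0.30, adjusted p = 0.00404, limma). The ligand il6 did not exceed 0.21 TPM in any library. Another ligand that signals through this chain, il11a, was the most abundant interleukin, at 19.8, 27.6 and 71.8 TPM in SFL, against 30.1, 33.1 and 49.3 TPM in CFL. Its lines overlapped, with a log2 fold change of only -0.10 (SE 0.47, adjusted p = 0.882, limma), running from -0.63 to 0.28 as single libraries were left out. Its receptor il11ra, named after its values were seen, had 1.93, 2.79 and 7.68 TPM in SFL, against 1.42, 1.27 and 1.14 TPM in CFL, without overlap (log2 fold change 1.01, SE 0.39, adjusted p = 0.0875, limma). The il11ra difference was called without SFL replicate 1 (1.33, adjusted p = 0.04, limma). Other fits with 1 library left out brought it down to 0.55, with adjusted p up to 0.193 (limma).

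The chain that binds interleukin-10, il10ra, was lower in SFL. It had 1.94, 7.63 and 5.14 TPM there, against 22.0, 26.0 and 77.0 TPM in CFL, with no overlap and CFL replicate 3 far above the rest. The fall was 2.76 on the log2 scale (SE 0.57, adjusted p = 0.0113, limma). Its partner chain il10rb, chosen after its values were seen, overlapped at 3.34, 3.84 and 6.50 TPM in SFL, against 4.37, 5.27 and 4.89 TPM in CFL, and the ligand il10 did not exceed 0.13 TPM. Another chain of the same receptor class, il20ra, was at 0.03, 0.03 and 0 TPM in SFL, against 1.54, 1.87 and 1.88 TPM in CFL (log2 fold change -1.44, SE 0.11, adjusted p = 0.000218, limma). The last of the lower receptors was il17rd, known in zebrafish as an inhibitor of fibroblast growth factor signalling. It had 0.04, 0.30 and 0.15 TPM in SFL, against 3.26, 2.50 and 3.41 TPM in CFL, and fell by 1.80 (SE 0.16, adjusted p = 0.000392, limma). SFL was at or near 0 for both il20ra and il17rd.

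The symbol il13ra1, a receptor chain for interleukin-13, is carried by 2 genes with opposite values in these lines. ENSAMXG00000007475 had 10.7, 1.84 and 6.83 TPM in SFL, against 0.41, 0.44 and 1.01 TPM in CFL, which is 2.00 on the log2 scale (SE 0.50, adjusted p = 0.0228, limma). ENSAMXG00000030064 had 3.77, 0.59 and 1.02 TPM in SFL, against 2.99, 5.95 and 6.14 TPM in CFL, where the lines overlapped in SFL replicate 1 (log2 fold change -1.23, SE 0.45, adjusted p = 0.0747, limma). Reads that could map to either copy may be divided between them, so both levels are uncertain. The call of the first copy was lost without SFL replicate 3 or without any of the 3 CFL libraries, with adjusted p between 0.0501 and 0.0814 (limma). The second was called without SFL replicate 1 (-1.70, adjusted p = 0.0128, limma) and in the later passages alone. Its difference shrank to as little as -0.91 with another library left out, with adjusted p up to 0.199 (limma).

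The classical inflammatory cytokines were close to silent in both lines. Tumour necrosis factor had 2 genes, tnfa and tnfb, and neither exceeded 0.08 TPM. Interleukin-1 beta also had 2 genes: il1b ENSAMXG00000031873 reached at most 0.52 TPM, and il1b ENSAMXG00000035729 had 0.79, 1.01 and 1.28 TPM in SFL, against 1.26, 2.32 and 0.12 TPM in CFL. The more abundant copy overlapped between the lines (log2 fold change -0.01, SE 0.38, limma), and its sign changed as single libraries were left out, from -0.44 to 0.34. Of 16 interleukins, 9 were tested and il34 was the only one called (11.1% lower, against 8.88% of all genes tested).

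Of 4 TRAIL genes among the TNF superfamily ligands, 3 were lower in SFL and 1 was not called, against 8.88% of all genes tested called lower. TRAIL (tnfsf10) triggers apoptosis through death receptors in mammals, and 4 genes carry its symbol or a duplicate of it. The most abundant, tnfsf10l4, had 14.4, 21.8 and 41.2 TPM in SFL, against 99.2, 93.7 and 66.9 TPM in CFL. The gene tnfsf10l3 had 1.70, 6.51 and 9.22 TPM in SFL, against 28.9, 24.3 and 26.3 TPM in CFL, and tnfsf10 had 1.04, 1.44 and 4.62 TPM in SFL, against 10.9, 5.77 and 9.99 TPM in CFL. None of these overlapped between the lines. They fell by 1.81 (SE 0.38, adjusted p = 0.0116), 2.21 (SE 0.47, adjusted p = 0.0127) and 1.66 (SE 0.43, adjusted p = 0.0245) on the log2 scale in the order named (limma). The fourth, tnfsf10l, named after its values were seen, was 2.80, 8.21 and 17.3 TPM in SFL, against 18.1, 16.1 and 18.5 TPM in CFL, where SFL replicate 3 lay within the CFL range (log2 fold change -1.11, SE 0.53, adjusted p = 0.148, limma). Summed, the 4 genes gave 19.95, 37.9 and 72.4 TPM in SFL replicates 1, 2 and 3, against 157, 140 and 122 TPM in CFL replicates 1, 2 and 3. In each of the 4 genes SFL replicate 3 was the highest SFL library and SFL replicate 1 the lowest. Left without CFL replicate 1, tnfsf10l3 kept its fold change (-2.15) at an adjusted p of 0.0511, and so did tnfsf10l4 without CFL replicate 2 (-1.75, adjusted p = 0.0511, limma). The later passages alone kept the call of tnfsf10l3 and lost tnfsf10l4 (-1.37, adjusted p = 0.0808, limma) and tnfsf10 (-1.22, adjusted p = 0.169, limma). The call of tnfsf10 was also lost without SFL replicate 1, SFL replicate 2, CFL replicate 1 or CFL replicate 3 (adjusted p from 0.0631 to 0.0874), and tnfsf10l was called without SFL replicate 3 (-1.65, adjusted p = 0.0204, limma). With another library left out, tnfsf10l shrank to as little as -0.51, with adjusted p up to 0.277 (limma).

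The RANK system gave the largest difference towards SFL. TNFRSF11B is osteoprotegerin, the soluble decoy that captures RANK ligand and TRAIL in mammals. The gene ENSAMXG00000035635 with this symbol had 11.1, 26.7 and 14.9 TPM in SFL, against 0.51, 0.52 and 0.17 TPM in CFL. All CFL libraries were below 1 TPM, and the gene was higher in SFL by 3.65 on the log2 scale (SE 0.33, adjusted p = 0.000404, limma). A second gene with the symbol in lower case, ENSAMXG00000020465, was listed at 0 in all SFL libraries and reached at most 0.34 TPM in CFL. The receptor RANK (tnfrsf11a), named after its values were seen, had 36.4, 49.7 and 117 TPM in SFL, against 28.0, 25.3 and 33.0 TPM in CFL, without overlap (log2 fold change 1.03, SE 0.41, adjusted p = 0.0951, limma). It was called without SFL replicate 1 (1.38, adjusted p = 0.0406, limma), but went down to 0.56 with another library left out (adjusted p up to 0.23, limma). The RANK ligand tnfsf11, named after its values were seen, overlapped, with 0.28, 0.88 and 6.92 TPM in SFL, against 5.58, 6.46 and 4.22 TPM in CFL. It was called lower without SFL replicate 3 (-2.03, adjusted p = 0.0028, limma), but shrank to as little as -0.72 with another library left out (adjusted p up to 0.392, limma).

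The other TNF family ligand that was called, tnfsf13 (APRIL, a survival factor of B lymphocytes and plasma cells), was higher in SFL. It had 2.30, 1.79 and 5.09 TPM there, against 0.10, 0.29 and 0 TPM in CFL, a rise of 1.77 on the log2 scale (SE 0.30, adjusted p = 0.00522, limma). The gene of TNF receptor 1, tnfrsf1a, had the highest mean of the TNF receptors, with 28.0, 32.8 and 55.1 TPM in SFL, against 83.6, 63.1 and 72.5 TPM in CFL. It passed on adjusted p below a fold change of 2 (-0.95, SE 0.27, adjusted p = 0.0362, limma) and was called without SFL replicate 3 (-1.23, adjusted p = 0.00488, limma) and with median-ratio scaling (-1.06). A pseudocount of 0.1 (0.0329) and a filter of 1 TPM in 3 libraries (0.0334) kept the pass on adjusted p (limma). It was lost with any other library left out, where adjusted p ran from 0.0791 to 0.119 and the difference shrank to as little as -0.76 (limma). The pass was also lost with the replicate block (0.0571), without a filter (0.0858) and in the later passages alone (-0.66, adjusted p = 0.219, limma). The receptor tnfrsf1b overlapped between the lines, at 1.17, 0.67 and 2.50 TPM in SFL, against 1.59, 1.31 and 1.72 TPM in CFL.

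**Figure D2:**
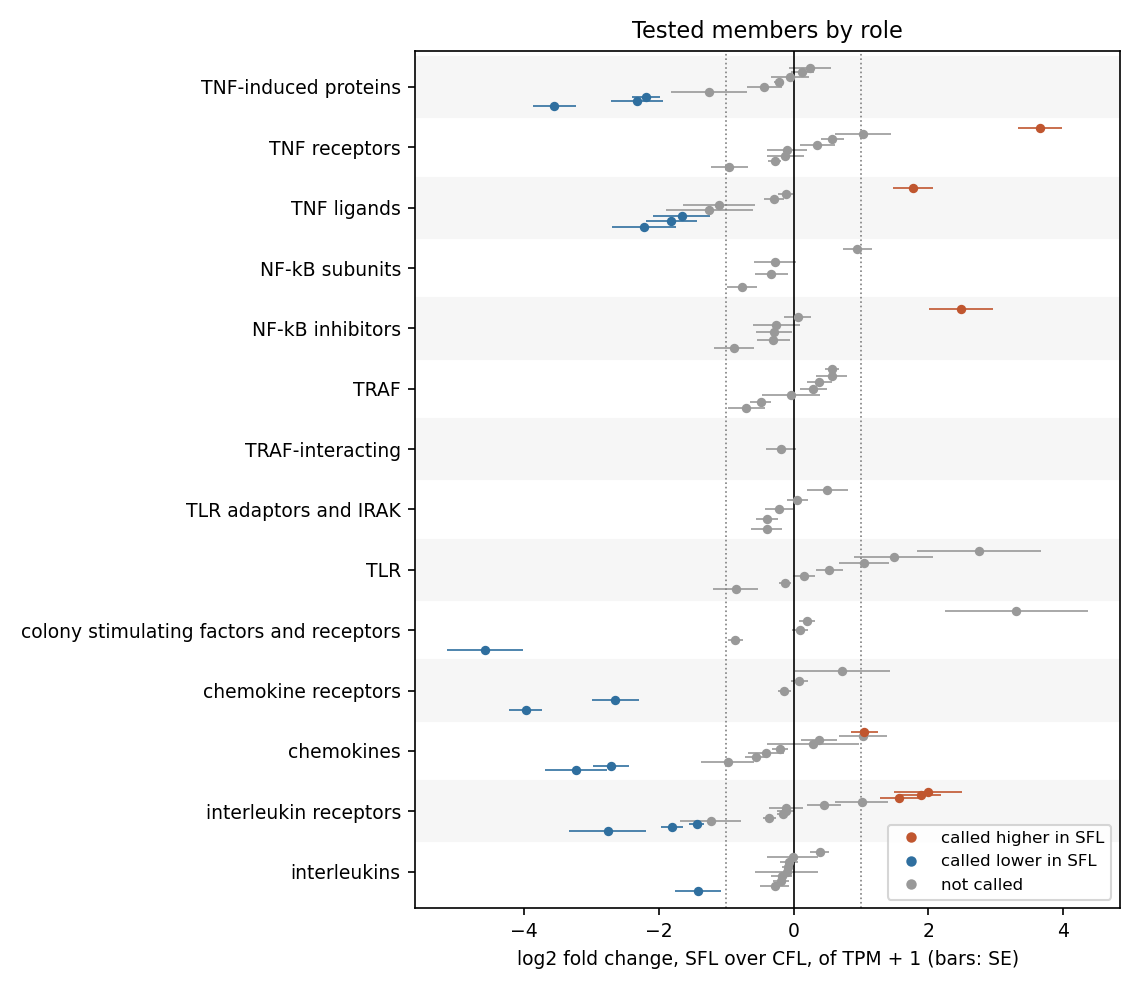
Log2 fold change, SFL minus CFL, of TPM + 1 for each of the 97 tested genes on the horizontal axis, grouped by role, with bars for the standard error from limma and dotted lines at a fold change of 2. Called genes lie among the ligands, receptors, TNF-induced proteins and inhibitors, and rows for TLRs, adaptors, TRAFs and NF-kB subunits hold genes that were not called in this fit, of which nfkb1, 1 tlr2 gene and traf4b were called with a pseudocount of 0.1.

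None of the 7 tested TLRs was called, although 5 had an unadjusted p under 0.05 in limma, 4 towards SFL and 1 towards CFL, against 46.5% of all genes tested. Both genes with the symbol tlr2, whose product recognises bacterial lipopeptides, had the same pattern over the libraries. ENSAMXG00000037614 had 24.1, 18.6 and 0.97 TPM in SFL replicates 1, 2 and 3, against 0.16, 0.83 and 0.50 TPM in CFL replicates 1, 2 and 3, and ENSAMXG00000025582 had 5.36, 3.03 and 0.13 TPM in SFL, against 0, 0.20 and 0.09 TPM in CFL. In both, SFL replicate 3 was close to the CFL libraries, just above their range in ENSAMXG00000037614 and within it in ENSAMXG00000025582. The log2 fold changes were 2.75 (SE 0.92, adjusted p = 0.0581) and 1.49 (SE 0.59, adjusted p = 0.0911, limma), and without SFL replicate 3 both were called, at 3.91 (adjusted p = 0.00034) and 2.21 (adjusted p = 0.00147, limma). With another library left out, the log2 fold changes went down to 2.08 and 0.96, and adjusted p went up to 0.158 and 0.213 (limma). Reads that fit either tlr2 copy make the level of each uncertain.

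The flagellin receptor TLR5 had 4.13, 2.45 and 1.17 TPM in SFL, against 0.45, 1.43 and 0.24 TPM in CFL (log2 fold change 1.05, SE 0.38, adjusted p = 0.0716, limma). The lines overlapped through SFL replicate 3, and TLR5 was called without it (1.36, adjusted p = 0.026, limma). With another library left out, TLR5 went down to 0.74 and adjusted p up to 0.195 (limma). The RNA sensor tlr8a lay the other way, with 0.79, 1.45 and 3.07 TPM in SFL, against 3.78, 2.83 and 4.82 TPM in CFL (log2 fold change -0.86, SE 0.33, adjusted p = 0.0862, limma), and was called without SFL replicate 3 (-1.18, adjusted p = 0.0156, limma). Other fits with 1 library left out shrank the tlr8a difference to as little as -0.59, with adjusted p up to 0.213 (limma). The sensor of double-stranded RNA, tlr3, had 3.39, 3.01 and 4.73 TPM in SFL, against 2.37, 2.48 and 1.84 TPM in CFL, apart but by less than a fold change of 2 (0.53, SE 0.20, adjusted p = 0.0836, limma). The fish receptor tlr18 had 0.94, 0.66 and 1.18 TPM in SFL, against 0.67, 0.99 and 0.52 TPM in CFL. The remaining 6 TLR genes, tlr9, tlr19, tlr21, tlr22 and both copies of tlr7, did not exceed 0.26 TPM in any library.

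Transcripts of myd88, irak1, irak4, traf6, traf2b and traf3ip1, which act under the receptors or bind TRAFs, were detected in both lines, and none was called. The adaptor myd88 had 26.3, 12.9 and 24.1 TPM in SFL, against 11.1, 16.3 and 15.1 TPM in CFL (log2 fold change 0.50, SE 0.30, adjusted p = 0.239, limma). The kinase irak1 had 18.3, 27.7 and 20.8 TPM in SFL, against 25.9, 28.6 and 23.0 TPM in CFL, and irak4, the kinase next to MyD88, had 2.83, 2.7 and 2.2 TPM in SFL, against 3.48, 3.66 and 3.89 TPM in CFL. Only irak4 lay apart between the lines, by -0.39 on the log2 scale (SE 0.17, adjusted p = 0.11, limma). The 5 tested adaptors and IRAK genes held no gene with an unadjusted p under 0.05 in limma, against 46.5% of all genes tested. The ubiquitin ligase traf6, which joins the TLR route to the IKK kinases, had 4.77, 6.83 and 6.84 TPM in SFL, against 5.16, 4.35 and 4.83 TPM in CFL (log2 fold change 0.29, SE 0.20, adjusted p = 0.286, limma). The most abundant TRAF, traf2b, which acts at TNF receptors, had 41.2, 24.4 and 21.2 TPM in SFL, against 39.5, 45.9 and 52.7 TPM in CFL. The lines overlapped in traf2b through SFL replicate 1. The TRAF-interacting traf3ip1 overlapped too, at 6.98, 7.49 and 11.7 TPM in SFL, against 10.2, 9.5 and 9.75 TPM in CFL. Of the 7 tested TRAF genes 0 were called and 4 had an unadjusted p under 0.05 in limma, 2 in each direction, against 46.5% of all genes tested.

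**Figure D3:**
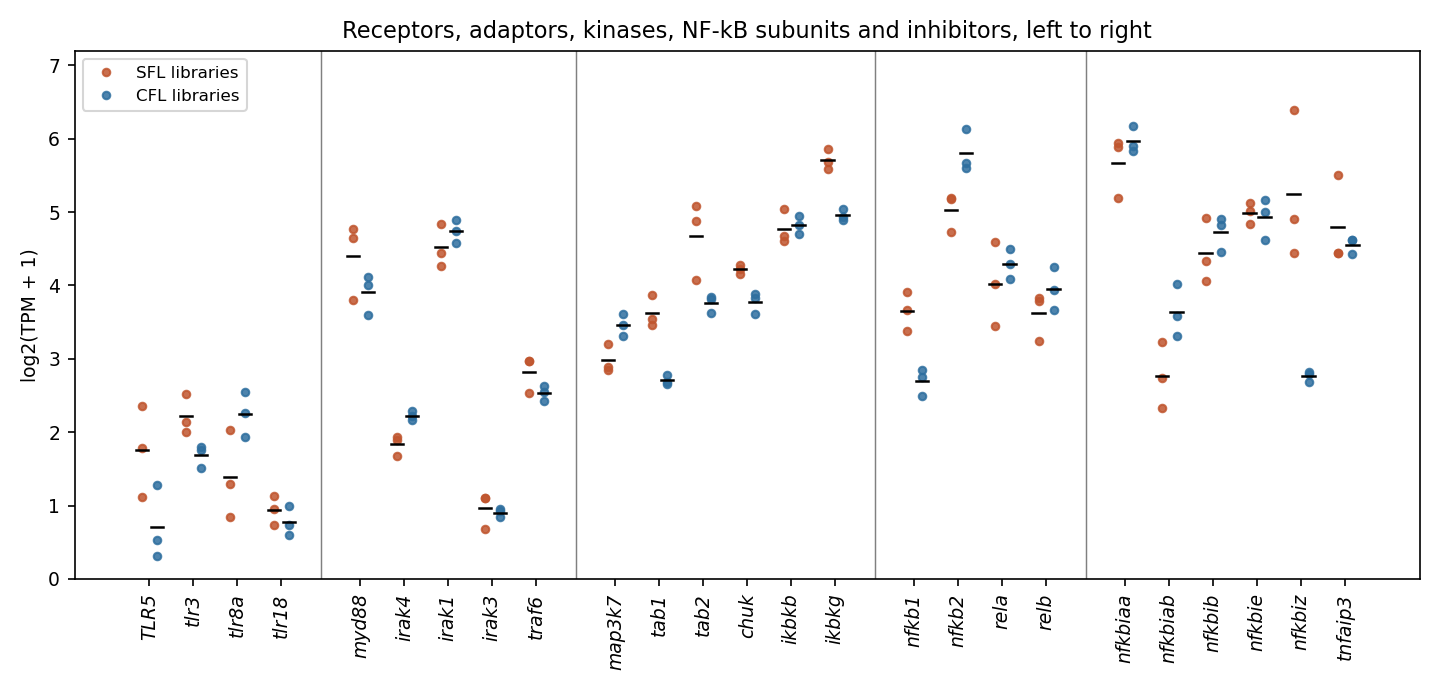
Level, as log2(TPM + 1), of the main genes along the route from receptors to NF-kB, one panel for each step and SFL left of CFL for each gene, with points for single libraries and bars at the mean of each line. The lines lie apart for tlr3, irak4, map3k7, tab1, tab2, chuk, ikbkg, nfkb1, nfkb2, nfkbiab and nfkbiz, of which only nfkbiz was called. They overlap for the other genes drawn, among them myd88, irak1, traf6, ikbkb, rela and relb.

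The 2 precursor genes of the NF-kB subunits differed in opposite directions, both passing on adjusted p and neither reaching a fold change of 2 on the log2(TPM + 1) scale. The gene nfkb1, which encodes p105 and the p50 subunit, had 14.0, 9.37 and 11.6 TPM in SFL, against 5.71, 6.22 and 4.65 TPM in CFL (log2 fold change 0.95, SE 0.21, adjusted p = 0.0148, limma). The gene nfkb2, which encodes p100 and the p52 subunit of the non-canonical route, had 25.4, 35.2 and 35.7 TPM in SFL, against 68.9, 47.6 and 50.01 TPM in CFL (-0.77, SE 0.22, adjusted p = 0.0367, limma). Neither overlapped between the lines. The ratio of the mean TPM, SFL over CFL, was 2.11 for nfkb1, which was called with a pseudocount of 0.1 (1.06, adjusted p = 0.0126, limma). It also passed both thresholds without SFL replicate 2 or CFL replicate 2, its log2 fold change running from 0.82 to 1.08 over the fits with 1 library left out (adjusted p up to 0.0503, limma). Over the same fits nfkb2 ran from -0.87 to -0.60, with adjusted p from 0.0373 to 0.116 (limma), and was called in 0 of 6. The transactivating subunit rela overlapped, at 9.86, 15.3 and 23.2 TPM in SFL, against 21.7, 18.5 and 16.0 TPM in CFL (-0.27, SE 0.31, adjusted p = 0.516, limma), and so did relb, at 8.44, 12.9 and 13.3 TPM in SFL, against 18.1, 14.3 and 11.7 TPM in CFL. The subunit rel, typical of lymphocytes, did not exceed 0.06 TPM. Of the 4 subunits tested 0 were called, and nfkb1 and nfkb2 were the ones with an unadjusted p under 0.05, against 46.5% of all genes tested.

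Of 6 genes of NF-kB inhibitors 1 was called (16.7%, higher in SFL, against 11.7% of all genes tested). This was nfkbiz, the nuclear IkB-zeta, which in mammals is induced by TLR and interleukin-1 signals and helps to switch on a second wave of genes. It had 20.8, 28.9 and 83.2 TPM in SFL, against 6.08, 5.94 and 5.42 TPM in CFL. Every SFL library was above every CFL library, SFL replicate 3 the most, and the gene rose by 2.48 on the log2 scale (SE 0.48, adjusted p = 0.00853, limma). The cytoplasmic inhibitor IkB-alpha, itself a target of NF-kB, has 2 genes. The more abundant, nfkbiaa, overlapped at 58.2, 35.6 and 60.4 TPM in SFL, against 71.3, 56.1 and 58.8 TPM in CFL (-0.30, SE 0.24, adjusted p = 0.373, limma). The other, nfkbiab, had 4.03, 5.66 and 8.36 TPM in SFL, against 15.3, 8.95 and 11.02 TPM in CFL, without overlap (-0.88, SE 0.30, adjusted p = 0.0604, limma), and was called without SFL replicate 3 (-1.11, adjusted p = 0.0238, limma). Leaving out another library shrank the nfkbiab difference to as little as -0.66, with adjusted p up to 0.181 (limma). The inhibitors nfkbib and nfkbie overlapped, with nfkbib at 29.3, 15.7 and 19.2 TPM in SFL, against 27.3, 29.1 and 20.9 TPM in CFL, and nfkbie at 33.8, 27.7 and 31.4 TPM in SFL, against 23.7, 31.1 and 34.9 TPM in CFL. The gene nfkbil1, related by its repeats, overlapped as well, at 4.88, 4.07 and 2.97 TPM in SFL, against 3.45, 3.59 and 8.84 TPM in CFL.

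Of the 9 tested genes with a tnfaip symbol (TNF-induced proteins and genes named as like them), 3 were lower and 0 were higher in SFL, and at an unadjusted p under 0.05 the numbers were 4 and 0 (limma), against 8.88% of all genes tested called lower and 20.5% lower at the unadjusted p. The secreted hyaluronan-binding protein gene tnfaip6 (TSG-6) had 0.14, 0.14 and 0.34 TPM in SFL, against 10.7, 22.0 and 9.43 TPM in CFL, and fell by 3.55 on the log2 scale (SE 0.32, adjusted p = 0.00041, limma). One gene with the symbol tnfaip2a, ENSAMXG00000019189, had 0.17, 0.27 and 0.17 TPM in SFL, against 6.92, 7.81 and 2.12 TPM in CFL (-2.32, SE 0.39, adjusted p = 0.0051, limma), and its duplicate tnfaip2b had 0, 0.03 and 0.05 TPM in SFL, against 5.43, 3.02 and 2.96 TPM in CFL (-2.19, SE 0.21, adjusted p = 0.000576, limma). These 3 genes were near 0 in every SFL library. A further tnfaip2a gene, ENSAMXG00000035514, did not exceed 0.23 TPM. The most abundant gene of the group, tnfaip3, encodes A20, a ubiquitin-editing brake on NF-kB, and overlapped at 20.7, 20.8 and 44.5 TPM in SFL, against 23.7, 23.5 and 20.5 TPM in CFL. It differed by 0.24 on the log2 scale (SE 0.31, adjusted p = 0.567, limma) and -0.11 without SFL replicate 3. The gene tnfaip8l3, named after its values were seen, had 2.41, 5.52 and 17 TPM in SFL, against 19.3, 15.3 and 15.4 TPM in CFL, and was called lower without SFL replicate 3 (-1.90, adjusted p = 0.00667, limma). Leaving out another library shrank the tnfaip8l3 difference to as little as -0.70, with adjusted p up to 0.276 (limma).

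The SFL libraries differed more among themselves than the CFL libraries, in these genes and over the whole table. The median SD of log2 values between libraries was 0.50 in SFL and 0.24 in CFL for these genes, and 0.32 in SFL and 0.18 in CFL for all genes detected in the line. Among the 49 genes detected in all SFL libraries, the highest library was a median of 2.08 times the lowest, and in 15 it was over 3 times. The same ratio had a median of 1.45 among the 59 genes detected in all CFL libraries, with 4 genes over 3. The widest SFL ratios were those of csf3a (21.8), cxcr3.3 (10.6), ccl20b (7.41), tnfaip8l3 (7.05) and tnfsf10l (6.18). SFL replicate 3 was the highest SFL library in 26 of the 49 genes (53.1%, against 42.0% of all genes detected in SFL), and SFL replicate 1 was the lowest in 25 (51.02%, against 41.9%). The order was not shared by all genes: csf3a, cxcr3.3 and both tlr2 genes were highest in SFL replicate 1 and lowest in SFL replicate 3, whereas the TRAIL genes, nfkbiz, il11a and tnfrsf11a were highest in SFL replicate 3 and lowest in SFL replicate 1. SFL replicates 2 and 3 share a passage number and SFL replicate 1 was a passage earlier. What sets these libraries apart was not tested.

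**Figure D4:**
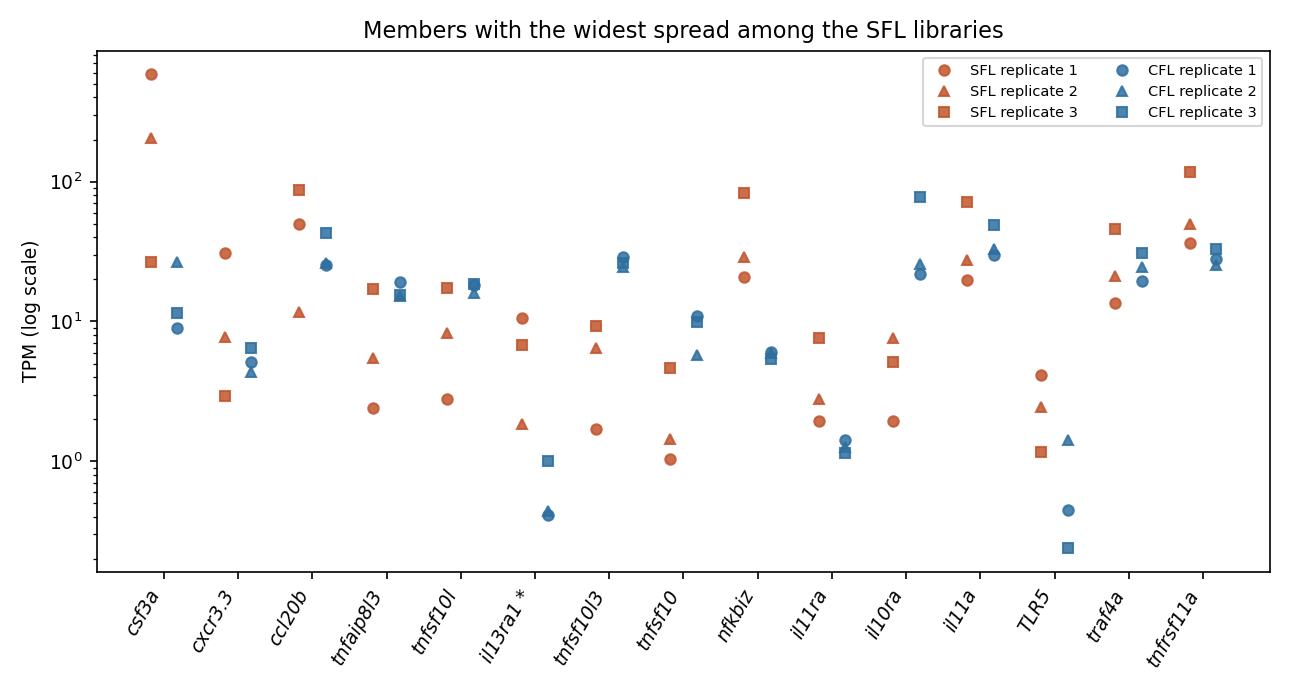
TPM, on a log axis, of the 15 genes detected in all SFL libraries whose highest SFL library was over 3 times the lowest. SFL libraries are drawn left of CFL libraries for each gene, and an asterisk marks a symbol that more than 1 gene carries. SFL values of csf3a run from 26.8 to 584 TPM, while its CFL values lie between 8.96 and 26.6 TPM.

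The genes around these pathways that the symbol rule leaves out were taken as 5 lists of 123 genes, of which 108 were tested, 15 (13.9%) were higher and 12 (11.1%) were lower in SFL, close to the 11.7% and 8.88% of all genes tested. With a pseudocount of 0.1 the numbers were 22 and 14. Their median log2 fold change was 0.22, against 0.07 over all genes tested. Among 14 IKK and upstream kinases 2 were higher and 0 were lower, and at an unadjusted p under 0.05 the numbers were 7 and 1 (limma). Over all genes tested these shares were 11.7% and 8.88% for calls, and 26.0% and 20.5% at the unadjusted p. The kinase map3k8 (TPL2), which p105 holds inactive in mammals, had 11.2, 6.96 and 16.1 TPM in SFL, against 1.88, 1.94 and 1.91 TPM in CFL (log2 fold change 2.02, SE 0.29, adjusted p = 0.0028, limma). The necroptosis kinase ripk3 was the other (5.49, 7.62 and 11.5 TPM in SFL, against 2.53, 3.17 and 3.05 TPM in CFL, log2 fold change 1.18, adjusted p = 0.0157, limma), and its call was lost without SFL replicate 3, CFL replicate 1 or CFL replicate 2 (log2 fold change down to 0.94). Those that passed on adjusted p only were the IKK scaffold ikbkg (0.76, adjusted p = 0.0111), ikbke (0.94, adjusted p = 0.016), tab1 (0.92, adjusted p = 0.0104) and tab2 (0.92, adjusted p = 0.0442, limma). The catalytic ikbkb overlapped (-0.05).

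Among 34 tested adaptors, ubiquitin enzymes and brakes, 3 were higher and 1 was lower in SFL (8.82% and 2.94%, against 11.7% and 8.88% of all genes tested). The higher ones were the ubiquitin ligase peli1b (36.5, 26.5 and 18.1 TPM in SFL, against 5.20, 4.94 and 6.41 TPM in CFL, log2 fold change 2.06), the scaffold card9 of C-type lectin signalling (58.2, 74.2 and 35.1 TPM in SFL, against 10.3, 19.95 and 19.5 TPM in CFL, 1.68) and the IRAK-binding tollip (94.9, 71.7 and 74.8 TPM in SFL, against 18.3, 30.1 and 34.8 TPM in CFL, 1.54). The A20-binding tnip2 was listed at 0 in all SFL libraries and had 2.37, 1.38 and 1.03 TPM in CFL (adjusted p = 0.00272, limma).

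Cytokine ligands and receptors outside the rule held 7 higher and 6 lower genes of 23 tested (30.4% and 26.1%, against 11.7% and 8.88% of all genes tested). The ciliary neurotrophic factor receptor cntfr, which signals with il6st, had 226, 83.8 and 138 TPM in SFL, against 3.70, 5.12 and 10.5 TPM in CFL (log2 fold change 4.32, SE 0.45, adjusted p = 0.000797, limma). The scavenging chemokine receptor ackr4b, whose ligands in mammals include CCL25, had 129, 93.4 and 358 TPM in SFL, against 13.6, 15.2 and 48.8 TPM in CFL (2.85, SE 0.64, adjusted p = 0.015, limma). Both were above in every SFL library. The cytokine subunit ebi3 (log2 fold change 2.31), the ectodysplasin receptor edar (1.64), the receptor ifngr1 (1.14), kitlga (1.14) and the leptin receptor lepr (1.12) were also higher. The receptor tyrosine kinase flt3 did not exceed 0.01 TPM in SFL and had 8.59, 8.6 and 7.24 TPM in CFL (-3.18, SE 0.15, adjusted p = 4.08e-05, limma). The TNF receptor family gene cd40 (-2.35), the cytokine partner crlf1a (-2.09), mif (-1.30), lifrb (-1.11) and relt (-1.05) were lower as well. With 1 library left out, calls were lost for ackr4b (without CFL replicate 1 or CFL replicate 2, adjusted p from 0.06 to 0.0617), lepr (without SFL replicate 1, 0.92 on the log2 scale), lifrb (without SFL replicate 2 or CFL replicate 2, adjusted p up to 0.0686) and, in 4 or 5 of the 6 fits each, kitlga, ifngr1, relt and ebi3 (adjusted p up to 0.0685, 0.098, 0.116 and 0.102, limma).

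Of 23 tested JAK, STAT and SOCS genes, which carry the signals of interleukin and interferon receptors, 2 were higher and 3 were lower in SFL. These shares were 8.70% and 13.0%, against 11.7% and 8.88% of all genes tested. The interferon signal transducers stat1b (0.15, 0.48 and 0.45 TPM in SFL, against 57.4, 56.6 and 22.1 TPM in CFL, log2 fold change -4.98) and stat2 (35.6, 32.6 and 80.0 TPM in SFL, against 244, 235 and 219 TPM in CFL, -2.33) were lower, as was jak3 (-3.13), the kinase of the common gamma chain. That chain, il2rga, was listed at 0 in SFL and reached at most 0.43 TPM in CFL, while the duplicate il2rgb overlapped at 0.24, 0.21 and 0.24 TPM in SFL, against 0.19, 0.59 and 0.26 TPM in CFL. The feedback genes cish (1.29) and socs5b (1.14) were higher. Of 14 tested textbook NF-kB targets, 1 was higher (7.14%, against 11.7% of all genes tested) and 2 were lower in SFL (14.3%, against 8.88%). The metalloreductase steap4 was higher (2.34), and the transcription factor irf1b (-2.68) and the peptidoglycan sensor nod2 (-1.71) were lower. The call of irf1b was lost in 4 of the 6 fits that leave out 1 library (adjusted p from 0.0611 to 0.0834) and that of cish in 5 (adjusted p from 0.0712 to 0.131, limma).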

How the data were processed

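Polyadenylated RNA of 3 SFL and 3 CFL libraries was sequenced as single reads. The study's methods describe RNA of adult tissues, whereas its results describe transcriptomes of the cell lines with 3 replicates. The library names give the line and the labels give a passage number, so the libraries were analysed as cultures of the lines. According to the submitters' processing notes, reads were processed with bcl2fastq 2.18, STAR 2.7.3a and RSEM, and the values deposited by the authors are TPM per Ensembl gene, with no scaling between libraries stated. The study's methods name a UCSC genome of the species and Ensembl gene models, and which assembly it was is not given in the sources used here. TPM keeps no counts, so depth is unknown, count tests were not run, and no counting interval or floor is given.

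Genes reaching 0.2 TPM in 1 or more libraries (18489) were compared on the log2(TPM + 1) scale with limma 3.58.1 (lmFit, eBayes with a trend) in R 4.3.3, SFL minus CFL, with Benjamini-Hochberg adjustment over all of them. Calls needed an adjusted p under 0.05 together with a fold change not below 2. The code was tested on simulated data. Tables and figures used Python 3.11.15, numpy 2.4.6, pandas 2.3.3 and matplotlib 3.10.9.

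The 142 genes, the roles and all lists were chosen with earlier results of these data known. Genes are named if called, if at 1 TPM or more in all libraries of a line and below it in all of the other, if highest in mean of their role, or if on a list of core genes (NF-kB subunits and inhibitors, MyD88, IRAK1, IRAK4, TRAF6, the TLRs and central cytokines with their receptors). From the other lists, at most 10 called genes each are named. Other genes given with values, such as receptors, ligands and duplicates of these, were chosen after their values were seen. Alternatives were a pseudocount of 0.1, no filter, a minimum of 1 TPM in 3 or more libraries, scaling by median ratios, the replicate number as a block, the later passages alone, and each library left out. Sequences were not used here.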

Additional observations from a re-analysis of the deposited data

How the results depend on the processing

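The counts of 7 higher and 15 lower genes became 12 and 20 with a pseudocount of 0.1, 6 and 13 without a filter, and 3 and 13 from only the later passages (2 libraries a line). All 7 and all 15 were among those called with the pseudocount of 0.1. That setting added csf3a, cxcl8a, nfkb1, tlr2 ENSAMXG00000037614 and traf4b as higher, and csf1ra, cxcl12a, il2rga, tnfaip2a ENSAMXG00000035514 and tnfrsf11b ENSAMXG00000020465 as lower. Leaving out 1 library gave 6 to 10 higher and 12 to 21 lower genes, both highest without SFL replicate 3. Among the other lists, leaving out 1 library gave 10 to 17 higher and 9 to 13 lower genes. The later passages alone lost the calls of ccl34b.4, il13ra1 ENSAMXG00000007475, il34, il6st, tnfaip2a ENSAMXG00000019189, tnfsf10, tnfsf10l4 and tnfsf13. That setting added il13ra1 ENSAMXG00000030064 and traf2b as lower.

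Replicate numbers did not pair the libraries (correlations of same-numbered deviations -0.27, 0.10 and -0.08), and with the replicate block 8 genes were higher and 14 lower, with il34 lost and csf3a gained.

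Uncalled genes changed sign with the later passages alone, to log2 fold changes of 0.12 for rela, 0.011 for relb, -0.16 for nfkbie, -0.042 for ccl20b, 0.14 for il11a and 0.15 for il1b ENSAMXG00000035729. The sign of nfkbie also changed with median-ratio scaling (-0.040), and that of this il1b with a pseudocount of 0.1 (0.30). With 1 library left out, tnfaip3 ran from -0.11 to 0.42, tnfrsf1b from -0.41 to 0.12, rela from -0.56 to 0.017, nfkbie from -0.092 to 0.18, nfkbil1 from -0.45 to 0.12, ccl20b from -0.31 to 1.09, il11a from -0.63 to 0.28 and il1b ENSAMXG00000035729 from -0.44 to 0.34. The cause was not tested.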
